A study of Rattus norvegicus with 6 samples.

Results

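Cultured rat neurons were compared with cultured rat oligodendrocyte precursor cells (OPCs) by RNA sequencing, using 4 of the 6 libraries of the series: 2 of neurons and 2 of OPCs. The 2 remaining libraries, of astrocytes, entered the model so that the spread between replicates could be estimated from more samples. They also took part in the filter for tested genes and in the scaling. The neurons had been kept for 7 days with 0 passages. The OPCs had been kept for 8 days, passaged 1 time and kept for 6 days after that. Both were bought as commercial rat cell products from a single supplier under different catalogue numbers, and the labels name no treatment, genotype, strain, sex or animal age. Product, passage and time in culture therefore cannot be told apart from cell type in any value given here.

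Neurons are the electrically excitable cells of the brain, which leave the cell cycle as they form and then grow axons, dendrites and synapses. OPCs are glial progenitors that keep dividing, respond to growth factors and can mature into the oligodendrocytes that wrap axons in myelin. Both arise from neural progenitors, and OPCs also express many of the ion channels and neurotransmitter receptors best known from neurons.

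Neuron replicates 1 and 2 held 75601751 and 55520161 counts, and OPC replicates 1 and 2 held 22265917 and 45077708, so the OPC side was read less deeply. Over the OPC pair, 3 counts were worth 0.0416 CPM (counts divided by the scaled library size), and over the neuron pair 0.0201 CPM. The 2 cell types held similar numbers of expressed genes. A CPM of at least 1 was reached by 15311 and 14519 genes in the neuron libraries and by 14550 and 14341 in the OPC libraries. The counts were spread over many genes in each. The 10 most abundant genes took 7.82% and 9.23% of the counts in neuron replicates 1 and 2, and 5.90% and 5.64% in OPC replicates 1 and 2.

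The deposited table names genes by Ensembl rat identifiers only, and 0 of them could be paired with a symbol from the reference table used here. The cell types could therefore not be checked against known marker genes, nor could neuronal, glial or other pathways be followed by name. Genes are described below by how they behaved, and individually only through 4 identifiers. Of these, 3 had been picked as markers of the contrast, and the other had the largest fold change towards neurons under the rule for naming. The markers were picked with earlier results of these libraries known, so their values describe the contrast and are no independent check of it. The files do not say which genes they are.

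ENSRNOG00000006037 was the marker on the neuron side. It stood at 433 and 176 CPM in neuron replicates 1 and 2 and at 7.00 and 3.51 CPM in OPC replicates 1 and 2. The groups did not overlap, and the lower neuron library lay 25.1-fold above the higher OPC library. The fitted log2 fold change, neuron minus OPC, was 5.86 ± 0.97 (SE), with a 95% interval of 3.58 to 8.14 and an edgeR adjusted p of 0.0142. This call was lost without OPC replicate 1 (adjusted p = 0.0923) and without OPC replicate 2 (adjusted p = 0.123), while the log2 fold change stayed between 5.07 and 6.44 over all alternatives.

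ENSRNOG00000011305 was the steadier of the markers on the OPC side. Its level was 597 and 445 CPM in OPC replicates 1 and 2 and 4.49 and 2.72 CPM in neuron replicates 1 and 2, so the lower OPC library lay 99.1-fold above the higher neuron library. Its log2 fold change was -7.17 ± 0.54 (SE; 95% interval -8.45 to -5.89; edgeR adjusted p = 0.0032). It kept its call under each of the 16 alternatives, the highest adjusted p being 0.0383 without OPC replicate 2.

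ENSRNOG00000017208, the other marker on the OPC side, was among the most abundant OPC genes, at rank 63 by mean CPM. It stood at 692 and 1329 CPM in OPC replicates 1 and 2 and at 16.5 and 0.588 CPM in neuron replicates 1 and 2. Every OPC library was far above every neuron library, by at least 42.0-fold, but the neuron libraries themselves lay 28.0-fold apart. The astrocyte libraries held 103 and 101 CPM of the same gene. Its log2 fold change was -6.88 ± 1.48 (SE; 95% interval -10.38 to -3.39; edgeR adjusted p = 0.0294), and the call was lost when either OPC library was left out (adjusted p = 0.0921 and 0.114 without OPC replicates 1 and 2). It was also lost without astrocyte replicates 1 and 2 (adjusted p = 0.0609 and 0.0606), in a fit of the 4 neuron and OPC libraries alone (0.0526), and with no low-count filter (0.148). The log2 fold change was -10.74 without neuron replicate 1, outside the interval above, and -5.94 without neuron replicate 2.

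Among called genes whose groups did not overlap and whose higher mean reached 50 CPM, ENSRNOG00000049882 had the largest fitted fold change towards neurons. Neuron replicates 1 and 2 held 10482 and 687 counts of it, or 115 and 11.9 CPM, and OPC replicates 1 and 2 held 0 and 0. Set against the floor of 3 counts over the OPC pair, this is at least 2758-fold higher for neuron replicate 1 and at least 286-fold for neuron replicate 2. The gene was thus read in both neuron libraries and in neither OPC library, and the neuron libraries lay 9.64-fold apart. Its fitted log2 fold change was 14.83 in edgeR, 13.59 in DESeq2 and 11.32 in limma-voom. With 0 OPC counts the size of this value is set by each model, not by a measured OPC level. The edgeR adjusted p was 0.0207, without OPC replicates 1 and 2 it was 0.0969 and 0.114, and with no low-count filter it was 0.205.

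**Figure D1:**
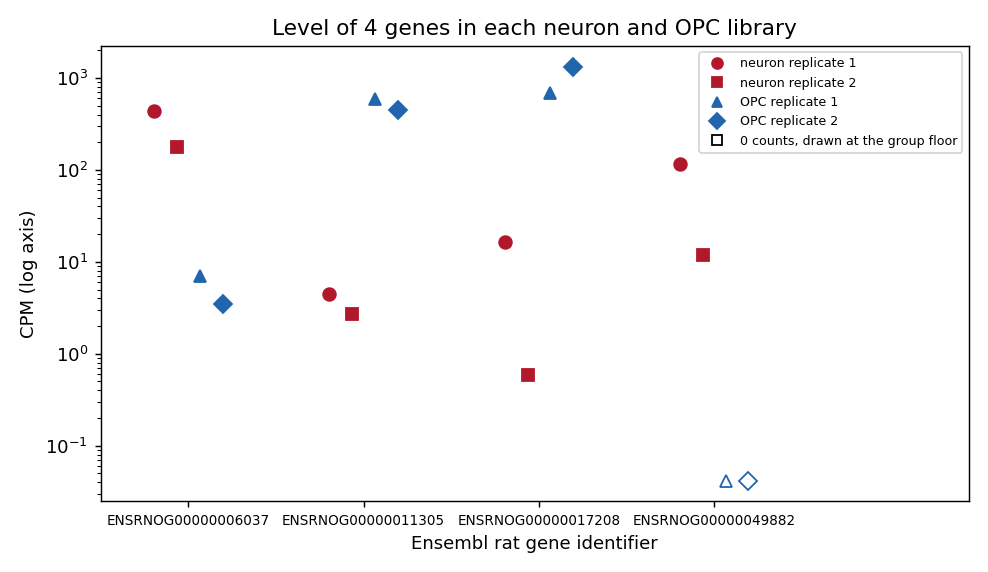
CPM on a log axis of the 3 marker genes and the gene with the largest fitted fold towards neurons under the naming rule (neuron libraries red, OPC libraries blue). In each gene the groups do not overlap. The neuron libraries lie far apart for ENSRNOG00000017208 (16.5 and 0.588 CPM), and the open symbols stand for 0 counts, drawn at 0.0416 CPM.

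Over the whole table, 2260 of the 18206 genes tested were called different between neurons and OPCs by edgeR's quasi-likelihood test at an adjusted p under 0.05, which is 12.4%. Neurons were higher in 1407 genes (7.73%) and OPCs in 853 (4.69%). Over all genes tested the log2 fold change had a median of 0.05. The calls began at a fold of a little over 2: 264 of the genes higher in neurons and 225 of those higher in OPCs differed by 2 to 4-fold, and 0 genes with a smaller difference were called. Of all genes whose fitted difference was 2 to 4-fold, 13.8% were called on the neuron side and 13.7% on the OPC side, and at 8 to 16-fold these shares were 51.7% and 80.3%.

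**Figure D2:**
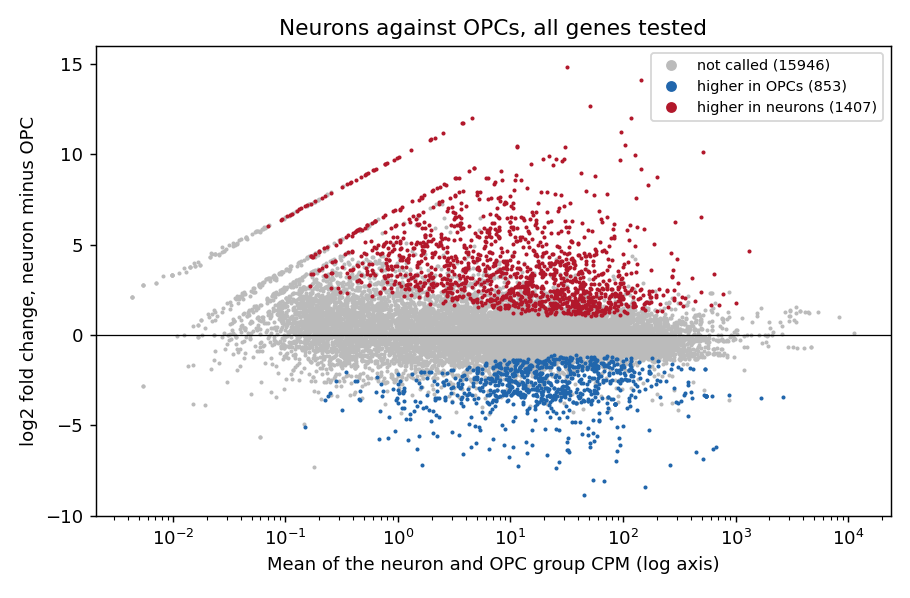
Fitted log2 fold change, neuron minus OPC, against the mean CPM of both groups on a log axis, with 1 point for each of the 18206 genes tested. Genes higher in neurons (1407, red) reach further from 0 than genes higher in OPCs (853, blue), and the upper diagonal lines are genes with few or 0 OPC counts, for which the model's fold rests on its prior count.

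The 2 directions differed in the levels of their genes. Genes higher in neurons included many with very low OPC levels. Their median level was 20.5 CPM in neurons and 1.51 CPM in OPCs, and 632 of the 1407 (44.9%) were under 1 CPM on average in OPCs. Genes higher in OPCs were mostly expressed on both sides. Their median level was 33.9 CPM in OPCs and 4.92 CPM in neurons, and 152 of the 853 (17.8%) were under 1 CPM in neurons. Library by library, 44.3% and 46.3% of the neuron-high genes were under 1 CPM in OPC replicates 1 and 2, beside 20.1% and 21.2% of all genes tested. For the OPC-high genes the shares were 15.4% and 22.3% in neuron replicates 1 and 2, beside 16.1% and 20.3% of all genes tested. These genes were selected by the same contrast, so the shares describe them and are not tested.

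Fold sizes followed the same lines. The median log2 fold change was 3.38 among genes higher in neurons (middle 50% from 2.25 to 5.02) and -2.70 among genes higher in OPCs (-3.42 to -1.94). Fitted differences over 64-fold numbered 219 on the neuron side and 30 on the OPC side. Of these 219 genes, 43 had 0 counts in both OPC libraries, where a fitted fold is no bound. With every gene of 0 counts set to its bound against 3 counts over the group, 184 of the 1407 neuron-high genes (13.1%) and 30 of the 853 OPC-high genes (3.52%) were over 64-fold, and the medians were 3.35 and -2.70. A further 137 neuron-high genes had 1 to 3 counts in the OPC pair, and these kept their fitted folds. Of the 219 neuron-high genes with a fitted fold over 64, 118 had 0 to 3 OPC counts and 101 had more. On the OPC side 29 of the 30 had more than 3 neuron counts. Among the OPC-high genes 0 had 0 counts in the neuron pair and 3 had 1 to 3.

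**Figure D3:**
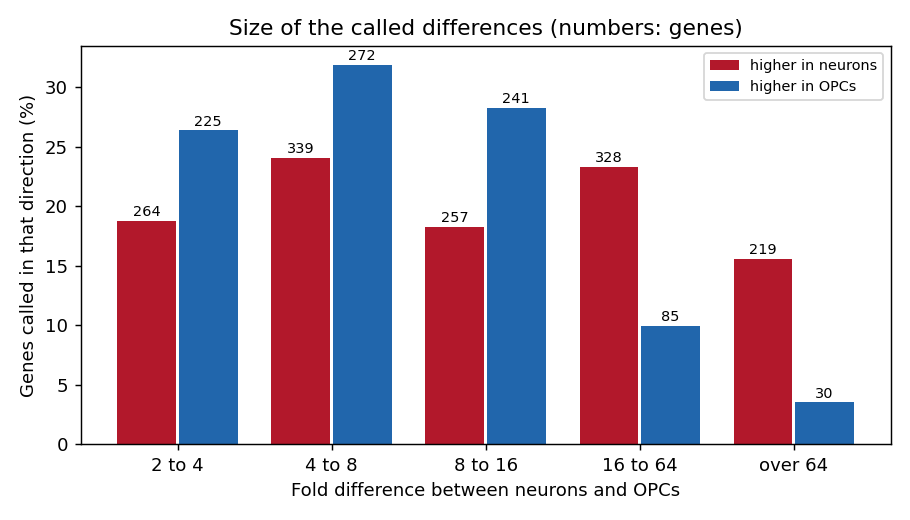
Share of the genes called in each direction that fell in each class of fitted fold difference, with the number of genes above each bar (red, higher in neurons; blue, higher in OPCs). The class over 64-fold holds 219 neuron-high and 30 OPC-high genes, and 43 of the 219 had 0 OPC counts.

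Genes present on one side and all but missing on the other were counted by a fixed limit of at least 10 CPM in both libraries of a group and under 0.5 CPM in both of the other. Neurons had 52 such genes and OPCs had 7. All of them had also been called, beside 12.4% of all genes tested. The limit itself requires a wide gap between the same libraries, so this is no separate result. The 52 neuron genes ranged from 12.6 to 288 CPM in mean neuron level, with a median of 29.2 CPM, and 8 of them reached 100 CPM. Their OPC counts summed to a median of 10.5 over the pair and at most 30. The 7 OPC genes ranged from 12.7 to 88.9 CPM in mean OPC level, with 29 neuron counts at the median and 48 at most. In the astrocyte libraries, 34 of the 52 neuron genes and 3 of the 7 OPC genes were also under 0.5 CPM in both. The same share over all genes tested was not taken, so these numbers are description only. Leaving out a library makes these limits easier to meet, so higher numbers are built into that comparison, and only their size is informative. On the OPC side, 38 genes met the limits in place of 7 when neuron replicate 1 was left out and 10 when neuron replicate 2 was, and 10 and 13 did without OPC replicates 1 and 2. On the neuron side the counts were 82 and 116 without neuron replicates 1 and 2 and 67 and 59 without OPC replicates 1 and 2, in place of 52. Neurons had more such genes than OPCs each time.

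Neuron-high genes outnumbered OPC-high genes at every level of expression, by the largest ratio among weakly expressed genes. Up to 0.25 CPM (the mean of the 2 groups), 33 genes were higher in neurons and 4 in OPCs, a ratio of 8.25. Between 0.25 and 1 CPM the numbers were 138 and 23 (ratio 6.0), and between 1 and 5 CPM 309 and 105 (2.94). The ratio was lower at higher levels, with 384 and 297 genes between 5 and 20 CPM (1.29), 443 and 331 between 20 and 100 CPM (1.34), and 100 and 93 above 100 CPM (1.08). The OPC libraries were the shallower ones, and the part of depth in this pattern was not tested.

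Both classes took a similar share of the RNA on their own side. The neuron-high genes took 9.89% and 8.58% of all counts in neuron replicates 1 and 2 and 1.63% and 1.43% in OPC replicates 1 and 2. The OPC-high genes took 8.90% and 8.80% in OPC replicates 1 and 2 and 1.69% and 1.14% in neuron replicates 1 and 2. On the OPC side 173 of the 853 genes had a mean above 100 CPM in OPCs, and on the neuron side 204 of the 1407 did in neurons. In bulk RNA, more cells expressing a gene and more RNA of it per cell cannot be told apart.

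A limited set of genes could be placed as similar in the 2 cell types. For 1885 genes (10.4% of those tested) the 95% interval of the log2 fold change lay wholly between -1 and 1, a difference bounded under 2-fold in either direction. Such genes were 21.5% of those between 20 and 100 CPM and 8.65% of those between 5 and 20 CPM. At the other end, the interval lay wholly beyond 2-fold for 1276 genes on the neuron side and 659 on the OPC side. All these intervals were taken gene by gene, with no adjustment over the genes tested. The edgeR test against a 2-fold limit, at an adjusted p under 0.05, called 692 and 308. For 14061 genes (77.2%) there was no call and the interval did not lie wholly between -1 and 1. These are not shown to be alike, and some of them had an interval wholly beyond 2-fold. Both libraries of one group stood above both of the other in 10400 genes (57.1%), 5402 with neurons higher and 4998 with OPCs higher. All 2260 called genes were among them, beside 8140 genes that were not called.

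The neuron libraries differed more from each other than the OPC libraries did. The log2 difference between replicates had an SD over genes of 1.15 in neurons and 0.77 in OPCs. For the difference between the means of the 2 cell types the SD was 1.58. Each mean averages 2 libraries, which lowers replicate spread, so 1.58 is not the same measure as the SDs between single libraries. More than 2-fold gaps between the neuron libraries were found in 38.6% of the neuron-high genes, 28.8% of the OPC-high genes and 26.3% of the uncalled genes. Between the OPC libraries the same shares were 15.8%, 10.2% and 14.7%.

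The OPC-high genes leaned towards 1 neuron library. Of the 853, 632 (74.1%) were higher in neuron replicate 1 than in neuron replicate 2, with a median log2 difference of 0.45, where the uncalled genes had 50.3% and 0.01. The neuron-high genes had 59.7% and 0.22. Between OPC replicates 1 and 2 there was no such lean, with 45.6% of the OPC-high genes higher in OPC replicate 1 and a median of -0.05. The number of calls in each direction also turned on these libraries: without neuron replicate 1 the test gave 1278 genes higher in OPCs and 1481 higher in neurons, and without neuron replicate 2 it gave 614 and 1764.

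**Figure D4:**
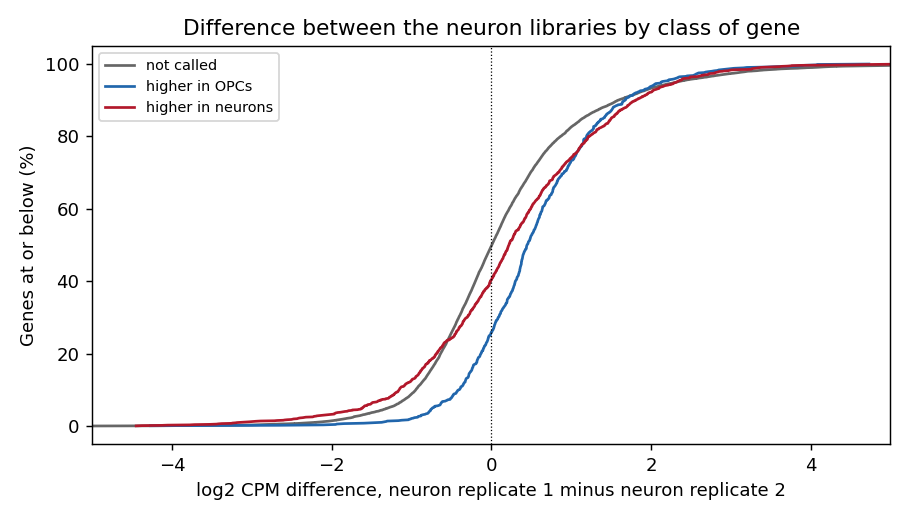
Cumulative share of genes by the log2 CPM difference between neuron replicate 1 and neuron replicate 2, for genes called higher in OPCs (blue), called higher in neurons (red) and not called (grey). The blue line lies to the right of the grey line around 0, as 74.1% of the OPC-high genes and 50.3% of the uncalled genes were higher in replicate 1.

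The genes that set the neuron libraries furthest apart were followed in the other cell types. The 453 genes over 8-fold higher in neuron replicate 1 had a median of 8.07 CPM there and 0.432 CPM in neuron replicate 2. Their median was 1.70 CPM in OPCs and 12.02 CPM in astrocytes, beside 13.2 and 14.5 CPM for all genes tested. In 199 of them (43.9%) both astrocyte libraries stood above every neuron and OPC library, against 24.7% of all genes tested, and both OPC libraries stood above both neuron libraries in 92 (20.3%), against 27.5%. The 66 genes over 8-fold higher in neuron replicate 2 had medians of 1.03 CPM in OPCs and 1.87 CPM in astrocytes, and astrocytes were highest in 4 of them (6.06%). The filter asks for a gene to pass in more than 1 library. A gene under its limit in 1 neuron library was therefore tested only if an OPC or astrocyte library also held it. Part of the astrocyte shares may be built in this way, and how much was not tested. Known astrocyte markers could not be looked up, and the part of other cells in these medians and shares was not tested. Of the 453, 24 were called higher in neurons and 11 higher in OPCs, together 7.73%. Of the 66, 17 were called higher in neurons and 1 higher in OPCs, together 27.3%, beside 12.4% of all genes tested.

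In the astrocyte libraries the neuron-high and OPC-high genes took different places. Both astrocyte libraries lay below every neuron and OPC library in 441 of the 1407 neuron-high genes (31.3%) and in 122 of the 853 OPC-high genes (14.3%), beside 19.8% of the uncalled genes. They lay above every neuron and OPC library in 223 (15.8%) and 162 (19.0%) of these classes, beside 25.8% of the uncalled genes. With the astrocyte libraries in the filter 18206 genes were tested, and the 4 neuron and OPC libraries alone gave 17410. Genes that entered through the astrocytes are low in neurons and OPCs, which may raise the uncalled share with astrocytes highest. No test was made of these shares.

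How many genes were called rested on both OPC libraries being present. All 6 libraries gave 2260 calls, and 225 were left without OPC replicate 1 and 116 without OPC replicate 2. A group left with 1 library adds nothing to the estimate of spread and is assumed to vary like the others. The numbers count genes under the adjusted p limit and do not measure how far the fold changes moved. All of these 225 and 116 genes were among the 2260. All 2260 genes kept the direction of their fold change in both of those fits. The fits share most of their libraries with the one that selected the genes, so this is no independent check. Leaving out a neuron library instead gave 2759 calls (without replicate 1, 1769 of them shared) and 2378 (without replicate 2, 1704 shared). In the 6 fits that left out 1 library each, 107 genes were called every time, 72 higher in neurons and 35 higher in OPCs. Their fold changes were large, with a median size of 6.10 on the log2 scale and none under 3.73.

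**Figure D5:**
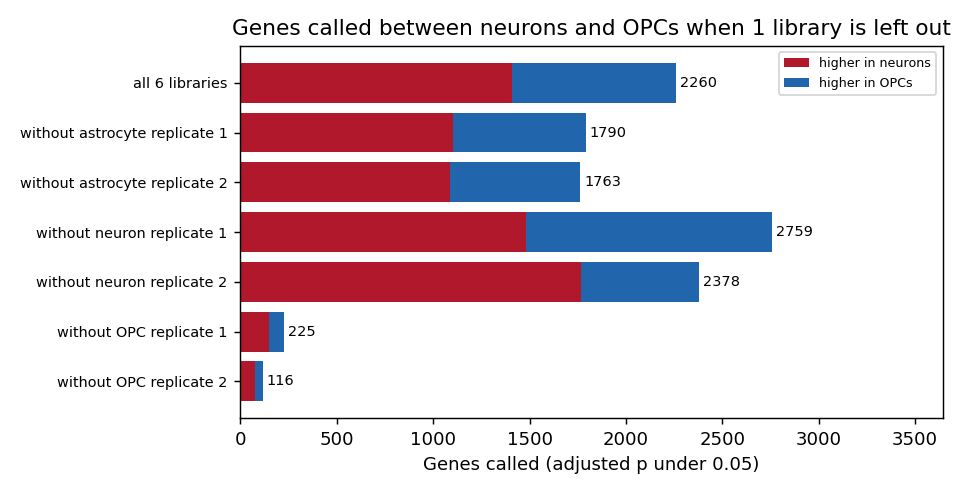
Genes called at an adjusted p under 0.05 with all 6 libraries and without each in turn, split into higher in neurons (red) and higher in OPCs (blue). The number falls from 2260 to 225 and 116 when an OPC library is left out.

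The 3 test procedures overlapped widely. In edgeR, DESeq2 and limma-voom together, 1948 genes (10.7% of those tested) were called in the same direction, 1138 higher in neurons and 810 higher in OPCs. DESeq2 called 4031 genes, which included 2250 of edgeR's 2260, and limma-voom called 2148, which included 1956. In 0 of these calls was the direction opposite to that of edgeR.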

How the data were processed

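The authors deposited raw read counts for each gene, not normalized. For the aligner, counting tool, strand setting, genome build and annotation, the sources used here give nothing. Whether overlapping genes on opposite strands were told apart is therefore not known. Per the labels' protocols, RNA was column-purified and sequenced on an Illumina instrument. Columns were matched to samples by description, and 0 were left out. Replicates are not stated to be separate cultures. The p-values therefore reflect the spread among these libraries alone, and that spread may be technical.

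Genes were filtered with filterByExpr (minimum count 10, minimum total 15) and scaled by TMM over all 6 libraries. The 4 neuron and OPC libraries alone gave 17410 tested genes in place of 18206. The fit used edgeR 4.0.16 in R 4.3.3, with robust quasi-likelihood, 1 coefficient per cell type and 3 residual degrees of freedom. The neuron minus OPC contrast used Benjamini-Hochberg adjustment over 18206 genes at 0.05. SEs were taken from each F statistic and fold change, and 95% intervals from the t distribution. Replicate differences are log2 CPM with a prior count of 2. Of the called genes, 27 had counts identical to another gene's, so shared reads are possible. The fit was tested on simulated data.

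The members, markers and lists were chosen with earlier results of these data known. With 0 identifiers paired to symbols, 37 planned gene lists were not run. The rule for named genes (called, 50 CPM or more on the higher side, groups not overlapping, ordered by fold change) was narrowed to keep 2 identifiers a direction, markers first. Alternatives were DESeq2 1.42.0, limma-voom (limma 3.58.1), other scalings, filters and designs, and each library left out.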

Additional observations from a re-analysis of the deposited data

How the results depend on the processing

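Under RLE, upper-quartile and total-count scaling, a filter at a mean of 5 CPM, no filter, limma-voom and 4 libraries only, the number of genes called stayed within 1.5 times 2260. Calls opposite in direction to those reported were 0 in each. DESeq2 gave 4031 (2446 higher in neurons, 1585 in OPCs) and testing against a 2-fold limit gave 1000 (692 and 308). Leaving out 1 library gave 116 to 2759 genes, 74 to 1764 higher in neurons and 42 to 1278 higher in OPCs. The replicate block gave 2445 genes, 1798 of them shared with the fit without it, and 51.9% were higher in neurons against 62.3%. The correlation of deviations between libraries of the same number was 0.162, and the labels do not say what a number marks. With limits of 5 and 0.5 CPM, 106 genes were on in neurons alone and 18 in OPCs alone, and with 10 and 0.2 CPM 29 and 3. Leaving out 1 library, chosen after seeing the data, gave 59 to 116 and 10 to 38, where the limits are easier to meet. The 4 named genes had 64 values under alternatives, of which 52 kept their call, 12 lost it and 0 reversed. The replicate block ended the call of ENSRNOG00000017208 (adjusted p = 0.0604), and no low-count filter that of ENSRNOG00000049882 (0.205). Except where construction shows it, the cause was not tested. Alternatives for gene lists and their shares were not run, since no list could be matched.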
